A study of Mus musculus with 6 samples.

Results

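The genes described here encode the semaphorin, netrin and Slit guidance ligands and their plexin, Unc5 and Robo receptors. They were taken from a list of 38 symbols, 24 ligands and 14 receptors, out of 22964 genes in the deposited table, and all 38 were found in it. The list is one of gene families and uses no measured value, although it was drawn up with earlier results of these data known. The study compared lymphatic endothelial cells, which line lymphatic vessels, from the meninges of young and old wild-type male mice. The strain is given as C57BL/6J in the sample labels and as C57BL/6 in the series design, and no animal was treated. There were 3 samples from mice aged 2 to 3 months (young) and 3 from mice aged 20 to 24 months (old). Cells without surface CD45, a leukocyte protein, and with CD31, an endothelial protein, and PDPN, podoplanin, were collected by flow cytometry. The mice came from 2 suppliers, and which sample came from which supplier, or whether animals were pooled, was not stated in the labels. The labels do not name separate animals for the samples, so p-values here reflect variation among these 6 samples, part of which may be technical.

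Guidance cues were first described as signals that attract or repel growing axons, and blood and lymphatic vessels use the same families. Semaphorins signal through plexins, and most class 3 semaphorins, which are secreted, need a neuropilin as co-receptor. In lymphatic vessels, class 3 semaphorins act on valves and on the coverage of vessels by mural cells. Netrins bind the receptors Dcc, neogenin and the Unc5 proteins. Slits bind Robo receptors, and the endothelial member Robo4 also binds Unc5b.

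Each level is in CPM, an estimated count brought to a common library size, as the value in each sample or as mean ± SD over the 3 samples of an age. Comparisons of levels between genes use CPM per kb of the longest coding transcript. The samples held 14285794 to 21043945 estimated counts. Prox1, the transcription factor of lymphatic fate, averaged 905 ± 34.2 CPM in the young and 1107 ± 258 CPM in the old samples (SD, n = 3). Ptprc, which encodes CD45, had 0.988 CPM in young sample 1 and 30.6 to 72.4 CPM in the other samples. Of lists of cell type markers, all 7 lymphatic markers, all 5 markers of any endothelium, all 7 blood endothelial markers and 7 of 8 pericyte and smooth muscle markers had higher means in old cells, and 7 of 8 fibroblast and arachnoid markers and 7 of 8 macrophage and microglia markers had lower means. The summed level of the 5 endothelial markers was 1372 to 1518 CPM in young and 1852 to 2736 CPM in old samples. The pericyte and smooth muscle sum was 635 to 948 CPM in young and 961 to 2007 CPM in old samples, and no marker in it was at 0 in any sample. It was highest in old sample 1, where Myh11 had 665 CPM and Acta2 451 CPM, against 22.2 to 67.5 and 56.8 to 97.6 CPM in the other samples. Apart from Tagln, the other markers of that list were highest in other samples, and Kcnj8 was lowest in old sample 1, at 56.5 CPM. The fibroblast sum was 4023 to 6148 CPM in young and 2003 to 2143 CPM in old samples, and no marker in it was at 0 in any sample. The macrophage sum was 585 to 3680 CPM in young and 759 to 1552 CPM in old samples. In such bulk samples, fewer cells of a type and less RNA per cell cannot be told apart.

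Old samples had higher CPM of Ntn1 and Sema3f and lower CPM of Unc5c and Sema5a than young samples, with no overlap between the ages. No guidance gene passed the edgeR quasi-likelihood test after Benjamini-Hochberg adjustment over the 15394 genes tested, where 0.0% of all genes were called. The smallest adjusted p among the members was 0.686. At an unadjusted p under 0.05, 7 of the 35 tested members were counted, or 20.0%, against 5.56% of all genes tested. Sema3d, Sema3f, Sema6a, Ntn1 and Plxna1 were higher in old cells, where the share over all genes was 2.86%, and Sema5a and Unc5c were lower, where it was 2.7%. The count was 4 without young sample 2. DESeq2 called Sema3f, Sema5a, Ntn1 and Unc5c after adjustment, against 0.882% of all genes with an adjusted p, and limma-voom called 0 members. The 2 ages did not overlap in 11 of the 35 members, or 31.4%, against 12.0% of all genes tested. In 8 of them the old samples were higher, where the share over all genes was 5.56%, and in 3 lower, where it was 6.44%. Among the 21 members with a mean of at least 30 CPM, 5 were at an unadjusted p under 0.05, against 8.12% of the 5606 genes at that level. The smallest p that an exact permutation test of 3 samples against 3 can give is 0.1.

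**Figure D1:**
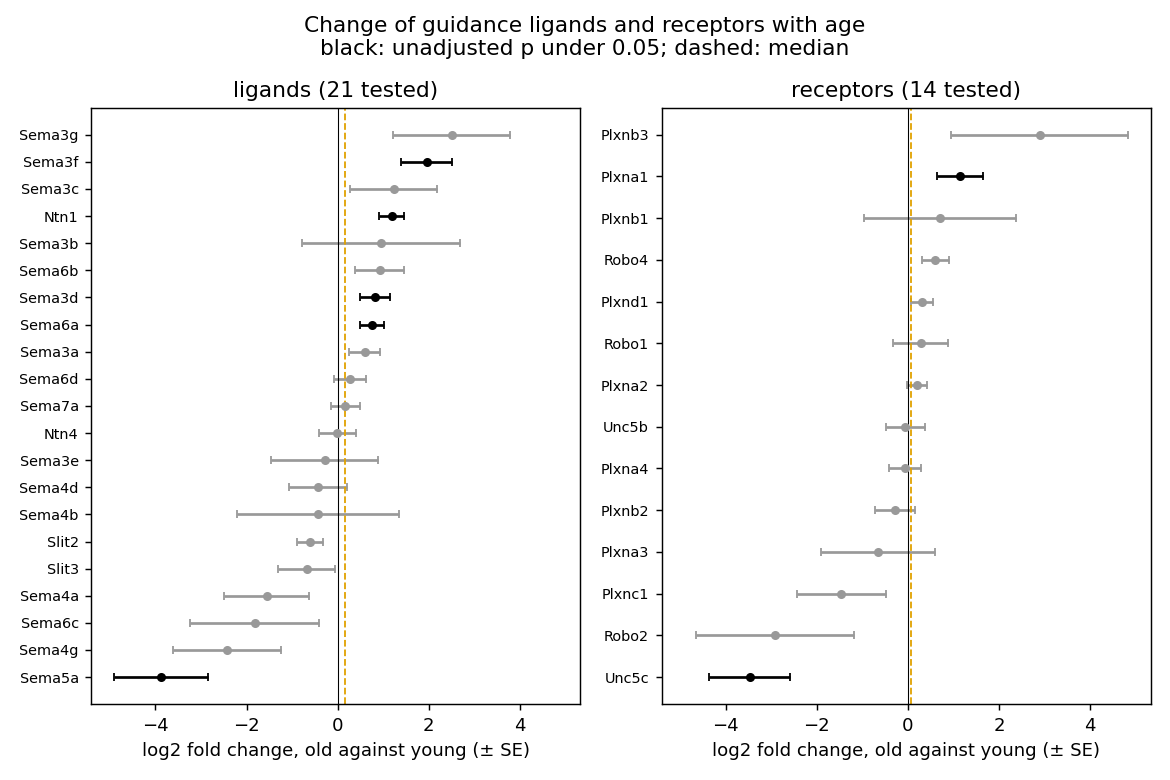
Log2 fold change of old against young with its standard error for the 21 tested ligands and 14 tested receptors, in order of size. Black points mark the 7 genes at an unadjusted p under 0.05, and the dashed lines mark the medians of 0.17 for ligands and 0.07 for receptors.

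Ligands and receptors were both centred near the middle of all genes, and the ligands spread further. Of the 21 tested ligands, 11 were positive, and their log2 fold changes had quartiles of -0.61 and 0.92 around a median of 0.17. Of the 14 tested receptors, 7 were positive, with quartiles of -0.56 and 0.53 around a median of 0.07. All genes tested had quartiles of -0.62 and 0.60 around a median of 0.02. The median of the receptors was -0.40 without old sample 3. Of the ligands, 5 were at an unadjusted p under 0.05 (23.8%) and 8 did not overlap between the ages (38.1%). Of the receptors, 2 were at that p (14.3%) and 3 did not overlap (21.4%). The shares over all genes tested were 5.56% and 12.0%. The ligands' summed level per kb was 304 to 315 in young and 346 to 451 in old samples, which did not overlap. The receptors' sum was 208 to 262 in young and 247 to 333 in old samples, which did. The sum of the endothelial markers was higher in every old sample too, and neither sum was set against it. The mean ligand sum was 311 in young and 393 in old samples. Within it, Sema6a had means of 59.2 and 99.7 CPM per kb and Ntn1 17.1 and 38.9. Slit2 went the other way, at 26.8 and 17.6. The difference between ligands and receptors was not tested.

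The secreted class 3 semaphorins had higher means in old cells in 6 of 7 members, with a median log2 fold change of 0.94, where 51.0% of all genes tested were positive. Of the 7, 3 did not overlap between the ages and were higher in old cells (42.9%): Sema3a, Sema3d and Sema3f. Over all genes tested, 12.0% did not overlap, and 5.56% were higher in old cells without overlap. Per CPM of the endothelial markers, which were higher in old cells too, Sema3a and Sema3d overlapped, with ratios of means of 0.982 and 1.18. The summed level per kb of the 7 class 3 members was 34.0 ± 2.38 in young and 68.7 ± 7.47 in old cells. This sum was not set against the endothelial markers. Sema3f, a repellent cue that binds Nrp2, lies on chromosome 9 at 107681500 to 107710475 on the minus strand (GRCm38). It had 8.03, 19.3 and 19.3 CPM in the young samples and 62.2, 61.0 and 57.5 CPM in the old samples. Every old sample was about as high as the others and well above every young one. The ratio of means was 3.87, and the log2 fold change was 1.95 (SE 0.57), at edgeR adjusted p = 0.752 and DESeq2 adjusted p = 0.028. Its neighbour Sema3b, separated from it by 72.3 kb on the same strand, had 0, 7.28 and 6.54 CPM in young and 0.894, 18.1 and 7.68 CPM in old samples, with overlap.

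Sema3d, a class 3 semaphorin that guides endothelial cells as well as axons, had 84.1, 63.0 and 78.8 CPM in young and 115, 122 and 162 CPM in old samples. The ages did not overlap, and the log2 fold change was 0.82 (SE 0.33) at edgeR adjusted p = 0.888 and unadjusted p = 0.0322. That unadjusted p lay above 0.05 with library size as the only scaling (0.0656) and when young sample 2 (0.11), young sample 3 (0.0715) or old sample 3 (0.103) was left out. Its sequence just before the annotated start (chr5:12383046-12383165, plus strand, GRCm38.p6, RefSeq) is shown as the promoter of a gene with a higher mean in old cells. Capitals in this and the next sequences mark GC boxes and TATA boxes, of which this stretch holds none.
Sema3d: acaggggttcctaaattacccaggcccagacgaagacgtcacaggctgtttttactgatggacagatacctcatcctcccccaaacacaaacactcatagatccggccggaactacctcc

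Sema3a, the founding axon repellent of the class and a cue for lymphatic valves, was the most abundant class 3 member per length, at 17.2 CPM per kb over the 6 samples, followed by Sema3d at 16.5. With merged exons in place of the longest transcript, Sema3d ranked above it. Sema3a had 82.3, 94.3 and 68.1 CPM in young and 125, 97.8 and 146 CPM in old samples, without overlap. Its log2 fold change was 0.59 (SE 0.33) with edgeR adjusted p = 0.891. Sema3g, a semaphorin of arterial endothelium, had 1.16 to 2.90 CPM in young samples. It had 18.8 and 13.8 CPM in old samples 1 and 2 and 0.972 CPM in old sample 3, which lay below every young sample. Sema3c had 6.24 to 11.2 CPM in young and 4.17, 18.2 and 40.8 CPM in old samples. Sema3e, the ligand of Plxnd1 that needs no neuropilin, was near the limit of detection at 0.826 to 3.20 CPM in all samples.

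The membrane semaphorins showed no common direction, with 4 of 10 tested members positive and a median of -0.44. Sema6a, a transmembrane ligand of A-class plexins, was the most abundant ligand per length, at 79.4 CPM per kb, although with merged exons Sema7a, at 62.6, ranked just above it, at 62.02. Sema6a had 421, 376 and 420 CPM in young and 944, 514 and 592 CPM in old samples. The ages did not overlap, with old sample 1 far above the rest. The endothelial sum, at 2736 CPM, and the pericyte and smooth muscle sum, at 2007 CPM, were also highest in that sample. The log2 fold change was 0.75 (SE 0.26) at edgeR adjusted p = 0.855 and unadjusted p = 0.0175, which lay above 0.05 without young sample 2 (0.0605) and without old sample 1 (0.0629). Without old sample 1, the log2 fold change was 0.45. Sema6b had 15.9, 27.7 and 31.0 CPM in young and 52.3, 50.5 and 38.4 CPM in old samples, without overlap, at unadjusted p = 0.121. Sema7a, a ligand held by a lipid anchor, and Sema6d were next in abundance at 62.6 and 31.3 CPM per kb. With merged exons, Sema6d, at 19.1, ranked below Ntn1 and Ntn4, at 26.2 and 22.5. Sema7a and Sema6d overlapped between the ages, with log2 fold changes of 0.17 (SE 0.32) and 0.28 (SE 0.35).

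Sema5a, a transmembrane semaphorin with thrombospondin repeats that binds Plxnb3, had the most negative log2 fold change of the 35 tested members. It lies on chromosome 15 at 32244810 to 32696341 on the plus strand (GRCm38). It had 49.0, 41.7 and 14.5 CPM in young and 2.83, 0.434 and 3.84 CPM in old samples. Every old sample was below every young one, and young sample 3 was well below the other young samples. The log2 fold change was -3.88 (SE 1.04), at edgeR adjusted p = 0.693 and DESeq2 adjusted p = 0.00646. The stretch before its start (chr15:32244690-32244809, plus strand, GRCm38.p6, RefSeq) is shown as the promoter of the member with the lowest fold change, and it holds 5 GC boxes, some of them overlapping.
Sema5a: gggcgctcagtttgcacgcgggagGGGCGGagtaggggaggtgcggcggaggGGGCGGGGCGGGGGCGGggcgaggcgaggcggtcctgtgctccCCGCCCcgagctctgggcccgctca

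The class 4 semaphorins, many of which act on immune cells as well as vessels, varied widely between samples of 1 age. Sema4d, the ligand of Plxnb1, had 45.7 to 97.5 CPM in young and 16.8 to 99.5 CPM in old samples. Sema4a had 9.64 to 26.6 CPM in young and 2.62 to 11.5 CPM in old samples. Sema4g had 2.35, 27.8 and 11.6 CPM in young and 1.49 to 3.79 CPM in old samples, at unadjusted p = 0.0708. Sema4a and Sema4g were both lowest among the young samples in young sample 1. Ptprc was also lowest in young sample 1, as were the summed macrophage markers, and the part of leukocyte transcripts in these values was not tested. Sema4b and Sema6c had 0.0745 to 13.2 CPM over the 6 samples. Sema4c, Sema4f and Sema5b did not pass the filter on low counts. Sema4c had 0, 2.73 and 7.26 CPM in young samples and was at 0 counts in all 3 old samples, and Sema4f and Sema5b had at most 1.11 CPM.

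**Figure D2:**
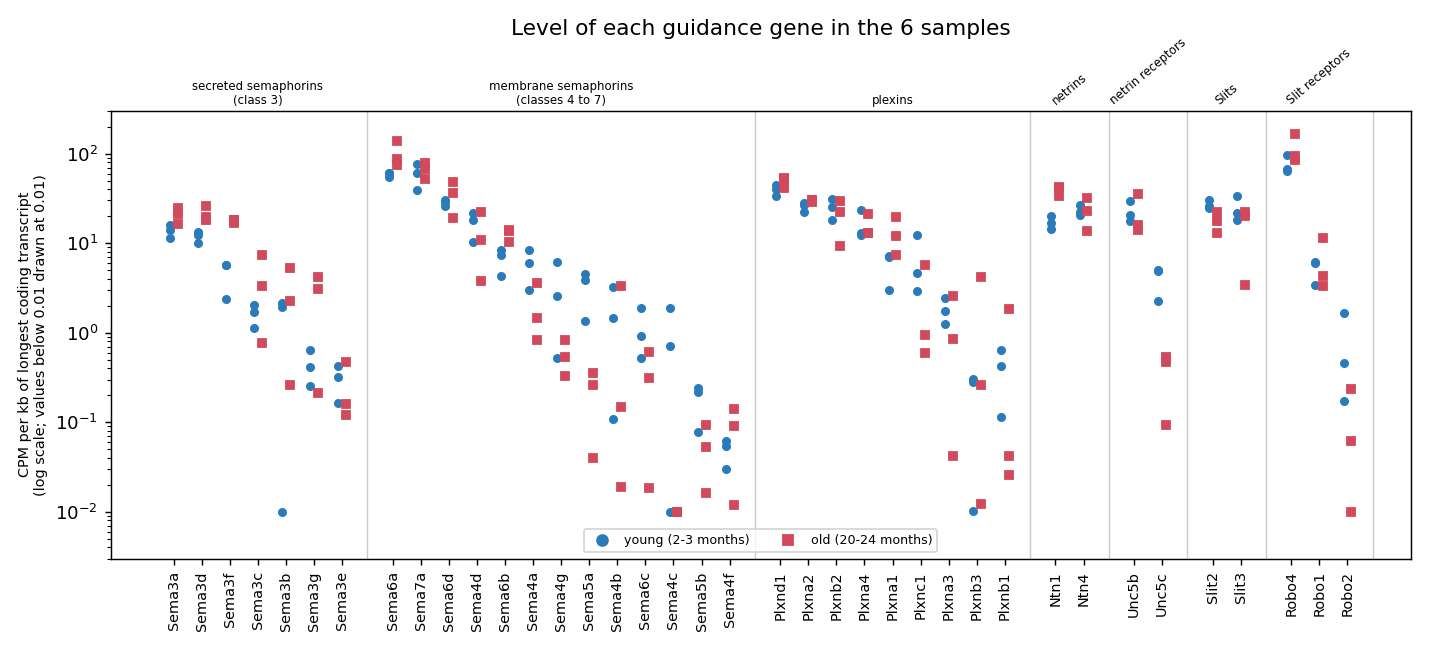
CPM per kb of the longest coding transcript on a log scale for each of the 38 genes in the 3 young samples (circles) and 3 old samples (squares), grouped by family and ordered by mean level. Robo4, Sema6a and Sema7a are the most abundant, and the old samples lie below the young ones for Sema5a and Unc5c.

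Plexins, the semaphorin receptors, differed little in summed level between the ages. Of the 9 plexins tested, 5 were positive, the median was 0.20, and the summed level per kb was 121 ± 8.87 in young and 133 ± 3.60 in old cells. Plxnd1, the plexin of endothelium, was the most abundant at 43.9 CPM per kb. It had 230, 275 and 309 CPM in young and 367, 358 and 282 CPM in old samples, with overlap and a log2 fold change of 0.31 (SE 0.24). Plxna2 was next at 27.8 CPM per kb, but with merged exons it ranked below Plxnb2, at 17.9 against 19.1. Plxna2 had 310, 247 and 298 CPM in young and 336, 331 and 317 CPM in old samples. Its ages did not overlap, but the ratio of means was only 1.15.

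Plxna1, a receptor for class 3 and class 6 semaphorins, was the only plexin at an unadjusted p under 0.05. It had 26.9, 65.8 and 64.1 CPM in young and 176, 65.9 and 107 CPM in old samples. Old sample 2 lay just above the highest young sample. The log2 fold change was 1.15 (SE 0.51) at edgeR unadjusted p = 0.0498 and adjusted p = 0.888. The unadjusted p lay above 0.05 in 9 of the 14 alternative analyses, the highest being 0.2 without old sample 1. An antisense gene, Gm26811, overlaps 10.7% of the merged exon length of Plxna1 and had 188 counts in all against 8647 for Plxna1. Whether counting used strand was not stated in the labels.

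The other plexins overlapped between the ages. Plxna4 had 159 to 303 CPM in young and 166 to 270 CPM in old samples, and Plxnb2, the receptor for class 4 semaphorins found in many cell types, had 118 to 203 and 60.8 to 194 CPM. Plxnc1, the receptor of Sema7a and a plexin of leukocytes too, had 21.3, 91.1 and 33.7 CPM in young and 6.93, 41.9 and 4.32 CPM in old samples. Plxna3, Plxnb1 and Plxnb3 were at or below 25.2 CPM in every sample. Plxnb3 reached that level in old sample 2 alone and had 0.0618 to 1.82 CPM elsewhere. Plxnb1 reached 16.0 CPM in old sample 3 and 5.56 CPM at most elsewhere. The fold changes of Plxnb3 and Plxnb1, at 2.90 (SE 1.94) and 0.71 (SE 1.67), changed sign without those samples, to -0.55 and -3.50.

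Of the netrin ligands and receptors, Ntn1 was higher and Unc5c lower in every old sample, and Ntn4 and Unc5b overlapped between the ages. Ntn1 encodes netrin-1, a secreted laminin-related cue, and lies on chromosome 11 at 68209364 to 68400823 on the minus strand (GRCm38). It had 85.2, 97.5 and 119 CPM in young and 241, 197 and 248 CPM in old samples. The lowest old sample was well above the highest young one. The log2 fold change was 1.19 (SE 0.28), a ratio of means of 2.27, at edgeR adjusted p = 0.686, unadjusted p = 0.00224 and DESeq2 adjusted p = 0.0298. Ntn4, a netrin of basement membranes, had 96.9, 81.7 and 74.4 CPM in young and 117, 84.2 and 50.2 CPM in old samples, with a log2 fold change of -0.01 (SE 0.41).

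Unc5c, a netrin receptor with a death domain that mediates repulsion, lies on chromosome 3 at 141465216 to 141834924 on the plus strand (GRCm38). It had 48.7, 47.4 and 22.0 CPM in young and 0.894, 5.13 and 4.57 CPM in old samples. The ages were well apart, and young sample 3 had less than the other young samples, as it did for Sema5a. The log2 fold change was -3.47 (SE 0.90) at edgeR adjusted p = 0.686 and DESeq2 adjusted p = 0.00442. Unc5b, the Unc5 receptor of endothelium, was far more abundant, at 22.2 against 2.22 CPM per kb. It had 103, 120 and 174 CPM in young and 206, 93.8 and 83.4 CPM in old samples, with overlap and a log2 fold change of -0.05 (SE 0.42). Unc5b made up 90.9% of the per-kb level of the 2 Unc5 members.

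**Figure D3:**
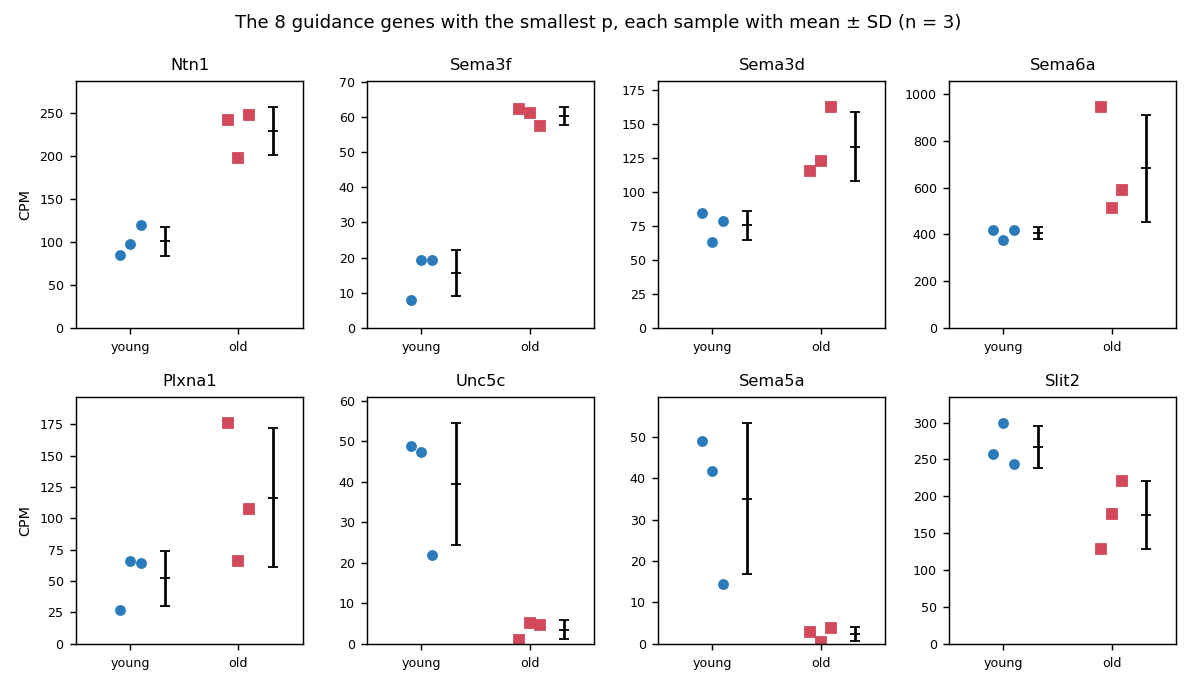
CPM in each sample, with mean ± SD (n = 3), for the 8 genes with the smallest unadjusted edgeR p among the tested members of the list. Ntn1, Sema3f, Sema3d, Sema6a and Plxna1 are higher and Unc5c, Sema5a and Slit2 lower in the old samples, without overlap.

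Both Slits had lower means in old cells, and neither reached an unadjusted p of 0.05. Slit2, a secreted leucine-rich repeat cue, had 258, 299 and 244 CPM in young and 128, 176 and 221 CPM in old samples. The ages did not overlap, although the highest old sample was close to the lowest young one. The log2 fold change was -0.61 (SE 0.28), at edgeR unadjusted p = 0.0572 and adjusted p = 0.888. The unadjusted p was 0.0328 with library size as the only scaling and 0.0259 without old sample 3. Slit3, its paralogue, had 93.9, 177 and 113 CPM in young and 116, 106 and 17.9 CPM in old samples, so its lower old mean came with 1 low sample, and the ages overlapped. The stretch before the Slit2 start (chr5:47983018-47983137, plus strand, GRCm38.p6, RefSeq) is shown for contrast with those above: it holds 3 GC boxes and 1 TATA box.
Slit2: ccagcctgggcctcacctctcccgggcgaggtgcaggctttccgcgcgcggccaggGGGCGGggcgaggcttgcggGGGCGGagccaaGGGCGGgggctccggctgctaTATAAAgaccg

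Robo4, the endothelial Robo that stabilises vessels, was the most abundant of all 38 genes per length, at 95.3 CPM per kb, and made up 93.9% of the per-kb level of the 3 Robo members. It had 330, 313 and 480 CPM in young and 813, 472 and 423 CPM in old samples. The ages overlapped, with old sample 1 far above the rest, and the log2 fold change was 0.60 (SE 0.30) at edgeR unadjusted p = 0.0793. Robo1, the broadly expressed Slit receptor, had 47.2, 45.5 and 25.6 CPM in young and 32.1, 24.9 and 86.5 CPM in old samples. Robo2 had 1.48, 14.1 and 3.90 CPM in young and 0, 2.02 and 0.535 CPM in old samples.

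Endothelial, mural (pericyte and smooth muscle) and fibroblast markers differed between the ages along with these genes, so the levels were also set against them, a step chosen after the values were seen. Per 1000 CPM of the 5 endothelial markers, Sema3f had 5.29 to 14.1 CPM in young and 22.7 to 33.0 CPM in old samples, and Ntn1 had 56.1 to 84.1 and 88.2 to 118 CPM. Both stayed apart between the ages on this scale, with ratios of means of 2.52 and 1.48. Sema6a, at 274 to 296 CPM in young and 278 to 345 CPM in old samples, overlapped on this scale with a ratio of 1.07. Sema6b and Plxna1 overlapped too, with ratios of 1.23 and 1.36. Plxna2 turned to lower in old cells, with a ratio of 0.762 and no overlap. The levels were not set against the 7 blood endothelial markers. Their sum was 583 to 750 CPM in young and 1135 to 1650 CPM in old samples. Their old-to-young ratios ran from 1.28 for Slc2a1 to 6.37 for Vwf. The CPM ratios of Ntn1 and Sema3f, 2.27 and 3.87, lay within that range. Per 1000 CPM of the 8 mural markers, Ntn1 overlapped, at 89.9 to 174 CPM in young and 120 to 210 CPM in old samples, with a ratio of 1.28. Only old sample 1, with the highest mural sum, lay within the young range. Old samples 2 and 3, at 205 and 210 CPM, were above every young sample. Sema3f stayed higher in every old sample, narrowly, at 8.47 to 30.4 and 31.0 to 63.5 CPM. Sema3a, Sema3d, Sema6a, Sema6b and Plxna1 overlapped on it, with ratios of 0.859 to 1.10. Among the 8 mural markers themselves, old-to-young ratios ran from 0.633 for Pdgfrb to 9.42 for Myh11, so this scale too depends on the markers that weigh most. Per 1000 CPM of the 8 fibroblast markers, Sema5a had 3.61 to 9.35 CPM in young and 0.217 to 1.79 CPM in old samples, and Unc5c had 5.47 to 10.6 and 0.443 to 2.56 CPM. Both remained lower in every old sample on this scale. Slit2 overlapped on it, at 41.9 to 67.0 CPM in young and 63.5 to 103 CPM in old samples. Its ratio of means was 1.498, opposite in direction to its CPM. That direction depends on the markers that weigh most. Old-to-young ratios of the 8 fibroblast markers ran from 0.146 for Postn to 1.85 for Dpp4. Col1a1 and Col1a2, with the highest means, had 0.356 and 0.337. The CPM ratio of Slit2, 0.655, lay above these and below those of Dcn and Pdgfra, at 0.795 and 0.797. The part of other cell types in these differences was not tested beyond these ratios.

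The co-receptors and other genes of the same pathways came from pathway lists that use no measured value. The lists were drawn up with earlier results of these data known. Of 19 tested receptors and co-receptors outside the members, 2 were higher and 2 lower at an unadjusted p under 0.05 (21.1% in all, against 5.56% of all genes tested, of which 2.86% higher and 2.7% lower), with a median of -0.08. Nrp2, the co-receptor shared by Sema3f and VEGF-C, had 766, 680 and 938 CPM in young and 1778, 1185 and 1302 CPM in old samples, with a log2 difference of 0.84 (SE 0.21) and edgeR unadjusted p = 0.00381 and adjusted p = 0.686. Per 1000 CPM of endothelial markers it overlapped, at 496 to 661 and 621 to 650 CPM. Kdr, which encodes VEGF receptor 2, had 355, 345 and 380 CPM in young and 673, 498 and 507 CPM in old samples. Ptprs and Gpc1, a receptor phosphatase and a glypican, were the 2 that were lower, with 161 ± 42.5 against 65.5 ± 19.1 CPM and 37.0 ± 14.2 against 12.0 ± 3.63 CPM.

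Nrp1, the co-receptor of Sema3a, had 201, 177 and 151 CPM in young and 42.3, 135 and 201 CPM in old samples, with overlap and a log2 fold change of -0.48 (SE 0.50). Neo1, which encodes the netrin receptor neogenin, had 335, 328 and 133 CPM in young and 191, 60.7 and 26.6 CPM in old samples, with overlap and a log2 fold change of -1.51 (SE 0.68) at unadjusted p = 0.0527. Neo1 was at an unadjusted p under 0.05 in 7 of the 14 alternative analyses, from 0.00199 without old sample 1 to 0.151 without old sample 2, and its log2 fold change ran from -2.60 to -1.08. Its young sample 3 was again the lowest young one. Dcc, the netrin receptor of neurons, had 0.447 to 10.4 CPM in the 6 samples. Of 6 other guidance ligands tested, 0 were at an unadjusted p under 0.05 in edgeR, and edgeR, DESeq2 and limma-voom each called 0 after adjustment. The 4 with the smallest p, Ntn5, Ntng1, Ntng2 and Draxin, varied by sample: Ntn5 had 15.02 CPM in old sample 3, Ntng1 had 17.2 CPM in young sample 2, and Ntng2 had 35.7 CPM in old sample 2.

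Of 42 tested genes that act inside the cell below these receptors, only Arhgap39 was at an unadjusted p under 0.05. That is 2.38%, against 5.56% of all genes tested, and the list median was -0.08. The ages did not overlap in 4 of them, or 9.52%, against 12.0% of all genes tested. Arhgap39, whose product binds Robo, averaged 50.2 ± 19.8 CPM at the young and 19.0 ± 4.72 CPM at the old age, without overlap. Srgap3, a Slit-Robo GTPase-activating protein, had 201, 148 and 172 CPM in young and 334, 235 and 215 CPM in old samples, without overlap, at unadjusted p = 0.0633. Rac1, the small GTPase, had 594 ± 113 and 849 ± 263 CPM, and the kinase Pak1 had 31.3 ± 15.6 and 4.12 ± 6.52 CPM.

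**Figure D4:**
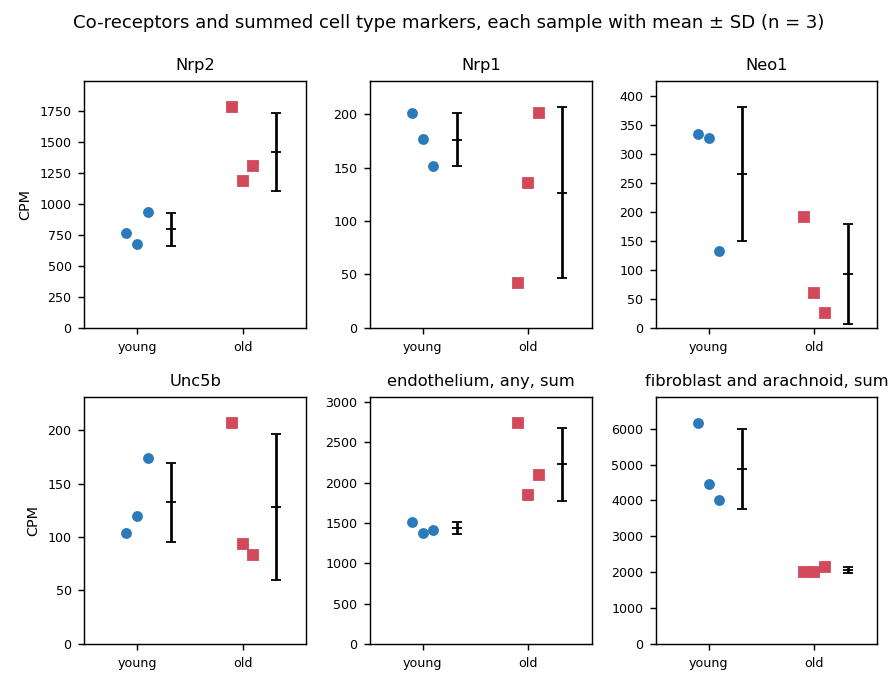
CPM in each sample, with mean ± SD (n = 3), of 4 receptors or co-receptors and of the summed markers of endothelium and of fibroblasts and arachnoid. The endothelial sum is higher and the fibroblast sum lower in every old sample, Nrp2 is higher in every old sample, and Nrp1, Neo1 and Unc5b overlap.

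In sequence and position, the members had features that the list did not use. The 5 members on chromosome 5, Sema3a, Sema3c, Sema3d, Sema3e and Slit2, included 4 of the 7 class 3 semaphorins. Chromosome 9 also held 5 members, Sema3b, Sema3f, Sema7a, Plxnb1 and Robo4. The share of all genes on these chromosomes was not counted. RefSeq promoter windows of 300 bases (GRCm38.p6) were matched for 32 of the 38 symbols, 45 windows in all. Their median GC content was 63.7%, against 52.7% over all 32851 windows. The GC box GGGCGG, on either strand, was in 64.4% of member windows and 35.7% of all windows. The TATA box TATAAA was in 2.22% of member windows, which is the single Slit2 window shown above, and in 13.6% of all windows. The AP-1 site TGACTCA was in 4.44% of member and 5.2% of all windows, the E-box CACGTG in 8.89% and 7.15%, and the ETS site CCGGAAG in 2.22% and 8.86%. These matches describe the letters in the windows only.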

How the data were processed

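Per the labels' protocols, RNA of the sorted cells was isolated with a PicoPure kit and underwent linear amplification, library construction and sequencing at a genomics service. The deposited table holds estimated counts per gene. FastQC, Salmon and the build mm10 are listed in the submitters' processing notes without versions or roles. Annotation, strandedness, the transcript-to-gene step and rounding: not given in the sources used here. All values were already whole numbers.

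Symbols, positions and transcript lengths came from GENCODE M21 (GRCm38, the assembly of mm10), which matched 22738 of 22964 identifiers. The gene test was that of edgeR 4.0.16 (R 4.3.3), with filterByExpr (minimum 10 counts, total 15), TMM scaling and a robust quasi-likelihood fit on age, two-sided, with Benjamini-Hochberg adjustment over 15394 genes at 0.05. An SE is the log2 fold change divided by the root of the F statistic. CPM were computed here from the deposited counts and TMM factors. Alternatives included DESeq2 1.42.0 and limma-voom 3.58.1.

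The members, lists and tests were chosen with earlier results of these data known. The named members were those at an unadjusted p under 0.05, those whose ages did not overlap and the most abundant of each family, with every other member given by level. Of other pathway genes, Nrp1, Nrp2, Dcc and Neo1 and up to 4 per list with the smallest p were named. Ratios to marker sums were added after the values were seen.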

Additional observations from a re-analysis of the deposited data

How the results depend on the processing

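Counts of members called after adjustment were 0 in edgeR under every scaling, filter, left-out sample and the replicate block, and 0 in limma-voom, against 4 in DESeq2. The count at an unadjusted p under 0.05, 7 as reported, was 6 to 9 under the other settings and 4 to 9 with 1 sample left out, the lowest without young sample 2. Other guidance genes called stayed at 0 throughout. The median of the ligands ran from -0.05 to 0.28 and that of the receptors from -0.40 to 0.23 with 1 sample left out. With library size only, all genes had a median of -0.12 in place of 0.02, and the receptors one of -0.06. Ntn1, Sema3f, Sema5a and Unc5c kept their direction and an unadjusted p under 0.05 in all 14 alternatives, with edgeR, DESeq2 or limma-voom adjusted p from 0.0298, 0.028, 0.00646 and 0.00442 up to 1.0.

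The deviations of same-numbered samples from their age means had correlations of 0.079, 0.053 and -0.012. Those of samples with unlike numbers ran from -0.095 to 0.059. With 3 samples per age, such values cannot settle whether the numbers pair the samples. With the replicate block, 6 members were at an unadjusted p under 0.05, without Sema3d and Plxna1 and with Plxnc1, and the median was 0.18 for ligands and -0.09 for receptors.

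Over 50 genes and 699 alternative values, 31 changed sign, all of genes at an unadjusted p above 0.05, and the cause was not tested. With 1 sample left out, the log2 fold changes that did so ran from -0.106 to 1.476 for Sema3b, from -1.121 to 0.039 for Sema3e, from -4.234 to 0.593 for Sema4b, from -0.047 to 0.565 for Sema6d, from -0.063 to 0.406 for Sema7a, from -0.333 to 0.307 for Plxna4 and from -3.505 to 1.271 for Plxnb1. For Plxnb2 they ran from -0.67 to 0.055, for Plxnb3 from -0.545 to 3.47, for Ntn4 from -0.328 to 0.253, for Unc5b from -0.583 to 0.182, for Robo1 from -0.47 to 0.589, for Ntng2 from -3.798 to 4.186 and for Dcc from -1.035 to 1.081. In limma-voom, Plxna4 (0.056), Plxnb1 (-0.878) and Ntng2 (-0.458) changed sign, with the replicate block Plxnb1 (-2.276) and Ntng2 (-1.105), and in DESeq2 or with its size factors Ntn4 (0.019). Genes under about 3 CPM rest on few estimated counts, which limits their precision.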
